A study of Homo sapiens with 12 samples.

Results

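The genes described here are 40 genes of glycolysis and of the transcriptional response to low oxygen, measured in KMS11 cells, a human multiple myeloma line. They were taken by symbol from a list of enzymes and isozymes of glycolysis, glucose and lactate transporters, pyruvate dehydrogenase kinases, angiogenic factors, mitophagy receptors and other genes induced by hypoxia. All 40 were found among the 29607 genes of the deposited table, and all 40 passed the filter of at least 1 TPM in at least 2 libraries that left 12731 genes for testing. TPM, a length-corrected transcript share, scales each gene by its length and each library to the same total, so levels can be compared between genes. Of the 40 genes, 35 reached 1 TPM in all 12 libraries.

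Glycolysis splits glucose into pyruvate, and lactate dehydrogenase turns pyruvate into lactate when it does not enter the mitochondrion. When oxygen is short, the prolyl hydroxylases that mark the alpha subunit of hypoxia-inducible factor (HIF) for destruction slow down; HIF then pairs with ARNT, binds short core sequences in promoters and enhancers, and raises glycolytic enzymes, glucose uptake, lactate export, angiogenic ligands and mitophagy receptors. Myeloma cells grow in bone marrow, where oxygen is low, and this program is known to operate there.

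The cells fell into 6 groups of 2 libraries. The shControl cells carried a control hairpin and the Vector cells an empty expression vector, and both are labelled wild type with no treatment. The sh1 and sh2 cells carried 1 of 2 hairpins against STK17B, a kinase related to the DAPK enzymes of cell death, with no treatment. The inhibitor cells are labelled wild type and treated with an STK17B inhibitor, whose name, dose and time the labels do not give; per the series' design text they carried the control hairpin. That text also mentions a vehicle, but no library used here is labelled as vehicle-treated, so the inhibitor was set against untreated shControl cells. The overexpression cells carried STK17B cDNA with no treatment and were set against Vector. The labels do not say whether replicates were grown apart, so each p-value measures the spread between these libraries only, which may be technical. They also give no oxygen level.

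Both control pairs appear in the table under numbers only, and they were assigned to shControl and Vector because the same numbers identify libraries in the labels, which is an inference. Many results that depend on it are given against the other pair as well. STK17B stood at 27.1 and 27.4 TPM in shControl, 28.2 and 31.5 in Vector, 12.7 and 10.9 with sh1, 14.7 and 14.5 with sh2, 24.9 and 22.4 with the inhibitor, and 94.1 and 84.5 with overexpression. On the log2(TPM + 1) scale, used for all changes below, STK17B fell by 0.998 with the hairpins (limma, adjusted p = 7e-06). It rose by 1.55 with overexpression (adjusted p = 2.4e-06). The inhibitor, aimed at the protein, gave -0.20 (adjusted p = 0.09), or -0.32 (adjusted p = 0.01) against Vector. JCHAIN and NSD2, also planned as markers, had no row under these symbols and were not looked up under older ones. Of 10 markers of plasma cells and of this line matched by symbol, 9 were above 5 TPM in all 12 libraries, and CD38 was at 0.127 to 1.47 TPM. Of these 10, 9 fell and CD38 rose with the inhibitor, 8 fell and MAF rose with the hairpins, and 6 fell and FGFR3 and MAF rose with overexpression; the surface marker SDC1 fell by 2.13, 0.98 and 1.06 in the same order. Of 23 markers of T and NK cells, macrophages, red cells, stroma, endothelium and epithelium, 15 were under 1 TPM in all libraries, CD3D and CD3G were at 0 in all, and the 23 summed to 21.3 to 29.01 TPM in shControl, 25.1 to 26.2 in Vector, 17.9 to 18.3 with sh1, 20.7 to 21.2 with sh2, 19.2 to 21.3 with the inhibitor and 24.7 to 25.6 with overexpression. CD3E (3.23 to 7.74 TPM), EPCAM (5.005 to 7.99 TPM) and KRT18 (3.88 to 7.97 TPM) were present in all 12 libraries. CD3E rose by 0.41, 0.59 and 0.77 log2 units with the inhibitor, hairpins and overexpression, and PECAM1 fell by 1.57, 1.12 and 1.55. The part of these markers in the results below was not tested.

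The 40 genes made up 2.61% of all transcripts in both shControl libraries, 2.22% and 2.19% in Vector, 2.22% and 2.23% with sh1, 2.23% and 2.26% with sh2, 1.89% and 1.96% with the inhibitor, and 3.48% and 3.47% with overexpression. The inhibitor libraries were the lowest and the overexpression libraries the highest, with no overlap between them and any other group. GAPDH alone averaged 7836 TPM over the 12 libraries and ranked 8 in the table; ENO1 (3238 TPM), PKM (3107 TPM), ALDOA (2584 TPM) and TPI1 (1260 TPM) followed.

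HIF binds the core ACGTG or GCGTG, and promoters hold such cores often by chance. RefSeq promoter windows on GRCh38.p14, 300 bases from 250 before to 50 after a transcript start, were matched by symbol for 34 of the 40 genes (59 windows). A core on either strand was present in 46 of the 59 windows (78%), against 48.4% of all 35116 windows and 54.7% of the 22199 windows of protein-coding genes. For ACGTG the shares were 47.5%, 21.4% and 23%, for GCGTG 54.2%, 36.5% and 43%, and for the E-box CACGTG, which contains ACGTG and is also bound by MYC and MAX, 20.3%, 7.26% and 8.34%. Among the 34 matched genes 33 had a core in at least 1 window, PGAM1 being the exception. This count per gene was not taken over all genes. Genes with several windows have more chances of a core, so the count cannot be set against the window shares. A match is a description of letters, not a measured binding site. The 8 stretches of 30 bases below come from the genes that fell most with the inhibitor among those with 1 window and a core upstream of the start; they were chosen after the values were seen, to show what the cores look like. Capitals mark the cores as read on either strand, so CACGT and CACGC are the cores of the opposite strand and CACGTG is the E-box.
PFKFB4 (chr3:48556955-48556984, minus strand): aggtgagttgggcatGCGTGgtcggaggcc
MIR210HG (chr11:568613-568642, minus strand): cccctccccgggcagACGTGcagaaaagaa
ALDOC (chr17:28576917-28576946, minus strand): gcaggcCACGCccccggaggagtCACGTag
PPFIA4 (chr1:203026357-203026386, plus strand): aagcggcgctctcgtCACGTGcccggaccc
ADM (chr11:10304957-10304986, plus strand): cgagagcaggagcgcGCGTGgctgaggaaa
ANKRD37 (chr4:185396675-185396704, plus strand): gctcCACGTGccagtgtttgtgtACGTGcg
CA9 (chr9:35673895-35673924, plus strand): ctctcgtttccaatgCACGTacagcccgta
BNIP3 (chr10:131982042-131982071, minus strand): ccgcgCACGCgccgCACGTGccaCACGCac
The PPFIA4 stretch holds a full E-box, the ANKRD37 stretch an E-box and a further ACGTG, and BNIP3 holds an E-box between 2 opposite-strand cores within 30 bases. MIR210HG is the host transcript of the hypoxia-induced miRNA miR-210; its mature 3p arm (RefSeq, chr11:568112-568133, minus strand) is shown because both are read from the same locus, with the seed (bases 2 to 8) in capitals.
hsa-miR-210-3p: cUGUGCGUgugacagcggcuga

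The inhibitor libraries held less RNA of nearly the whole group; in bulk RNA, fewer expressing cells and less RNA per cell cannot be told apart. Of 40 genes 36 fell against shControl and none rose, where 11.8% of all tested genes were called lower and 28.0% higher. The regulator PFKFB4, the host gene MIR210HG, the aldolase isozyme ALDOC, the liprin gene PPFIA4 and the peptide hormone adrenomedullin (ADM) fell most, to between 11% and 21.5% of shControl on the log2(TPM + 1) scale. The median change of the 40 was -0.90 log2 units, against 0.08 for all tested genes. With limma on log2(TPM + 1) and Benjamini-Hochberg adjustment, as in every comparison below, 18 of the 40 fell by 2-fold or more, against 0.738% of tested genes. PFKL, LDHB, PDK3 and SLC16A1 passed the test in neither direction. Rescaling each library by the median of ratios or by quantiles changed the balance over all genes, from 70.3% of calls higher to 55.9% and 51.9%, while 37 and 35 of the 40 genes were called lower.

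Overexpression gave the opposite picture. Of 40 genes 38 rose against Vector and none fell, where 26.6% of tested genes were called higher and 10.3% lower, and 12 rose by 2-fold or more, against 0.801%. The carbonic anhydrase CA9, MIR210HG, the lactate exporter SLC16A3, the enolase isozyme ENO2 and PPFIA4 rose most. Their rises lay between 3.57-fold and 9.002-fold on the log2(TPM + 1) scale. The median change was 0.83, against 0.08 for all genes. LDHB and SLC16A1 were not called; under median-of-ratios scaling, which moved the median of all genes from 0.08 to -0.015 (to -0.022 with quantiles) and the share of higher calls from 72.1% to 43.1% (46.3% with quantiles), both were called lower, and 37 of the 40 genes were called higher. These 2 comparisons share no library. The 36 genes that fell with the inhibitor all rose with overexpression, and over the 40 genes the log2 changes had a Pearson r of -0.696 and a Spearman rho of -0.761, a description across genes that are not independent replicates. Neither the joint count nor the correlations were taken over all tested genes. They therefore cannot be called particular to the 40.

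**Figure D1:**
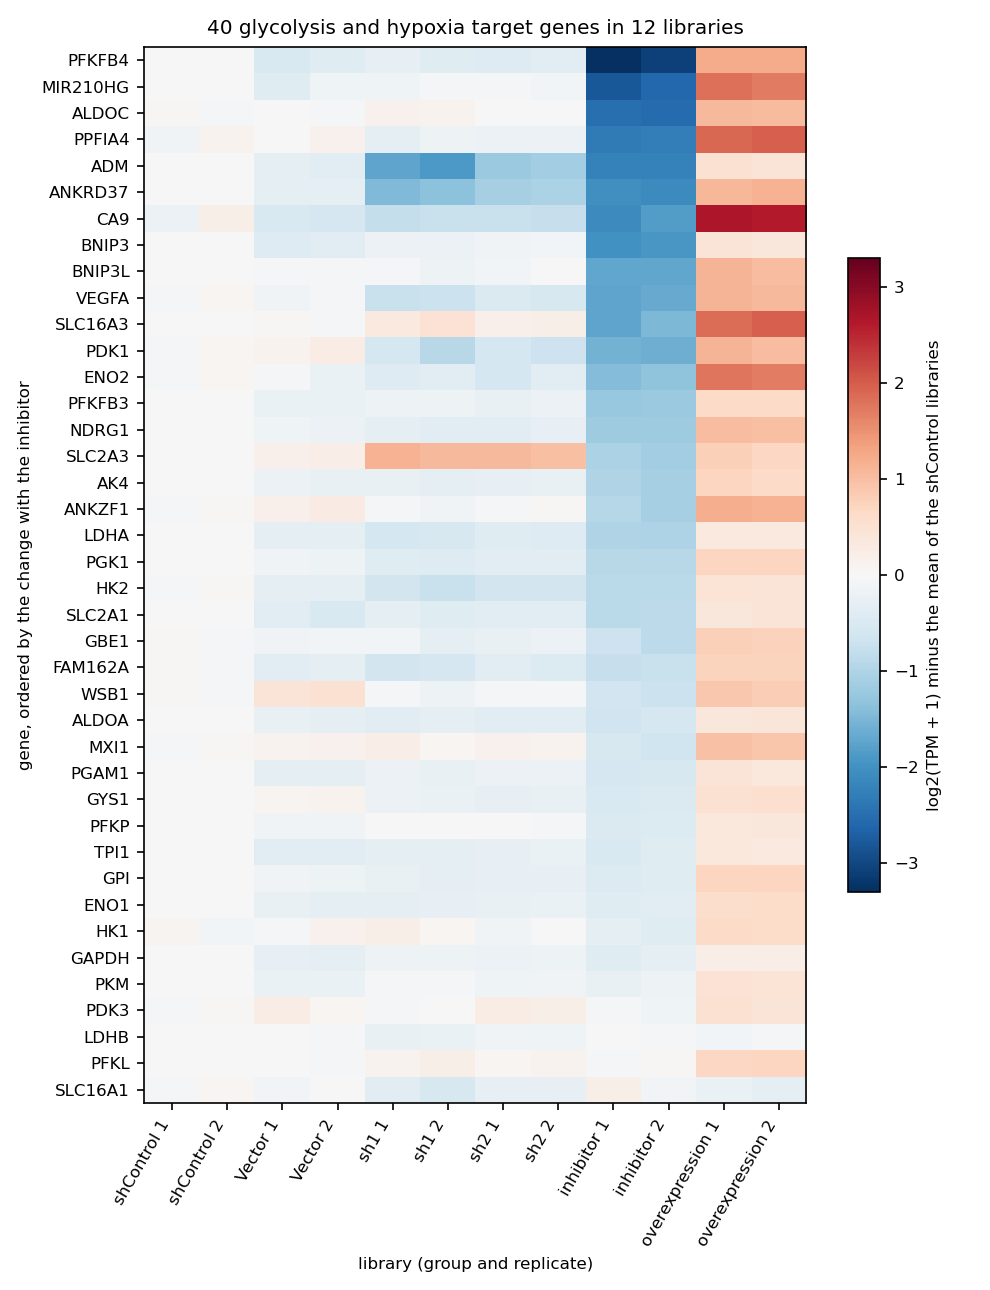
Each row is 1 of the 40 genes, ordered by its change with the inhibitor, and each column 1 of the 12 libraries; color gives log2(TPM + 1) minus the mean of the shControl libraries. The inhibitor columns are blue in nearly all rows and the overexpression columns red, while the hairpin columns are paler, with ADM and ANKRD37 the lowest and SLC2A3 the highest.

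**Figure D2:**
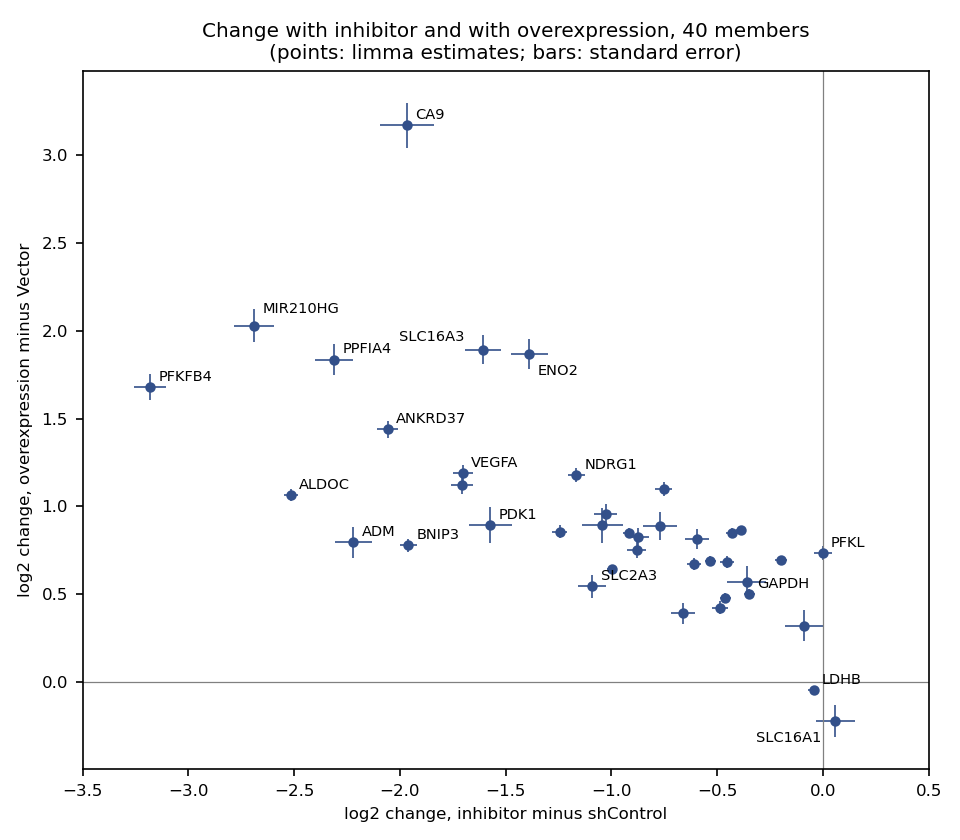
Each point is a gene; the horizontal axis is the log2 change of inhibitor minus shControl and the vertical axis that of overexpression minus Vector, with standard errors as bars. The 36 genes that fell with the inhibitor lie to the upper left, PFKL and PDK3 lie near 0 on the horizontal axis, and LDHB and SLC16A1 lie below 0 on the vertical axis.

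With the hairpins the changes were smaller and mixed. Against shControl, 28 of the 40 genes fell (20.2% of all tested genes were called lower) and 4 rose (26.2% were called higher): SLC2A3, SLC16A3, PFKL and MXI1. The median was -0.22, against 0.03 for all genes, and ADM and ANKRD37 fell by 2-fold or more (0.141% of tested genes) while SLC2A3 rose by as much (0.840%). This comparison shares its shControl libraries with the inhibitor comparison and with that of Vector against shControl, in which 20 of the 40 were lower (7.86% of tested genes) and WSB1 and ANKZF1 were higher (21.4% of tested genes), with a median of -0.14 against 0.08 for all genes. Under median-of-ratios scaling 26 were lower in Vector and 1 was higher, and the share of higher calls over all genes went from 73.1% to 42.9% (48.4% with quantiles). With the 2 pairs of control columns exchanged, so that the hairpins are set against the libraries taken here as Vector, 17 genes were lower and 8 higher, and the median was -0.05. The hairpin shares and median over all tested genes given above belong to the comparison with shControl. None is given for the exchanged version. Genes called lower with the hairpins in both versions include ADM, ANKRD37, PDK1, VEGFA, HK2, PGK1, LDHA and FAM162A.

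**Figure D3:**
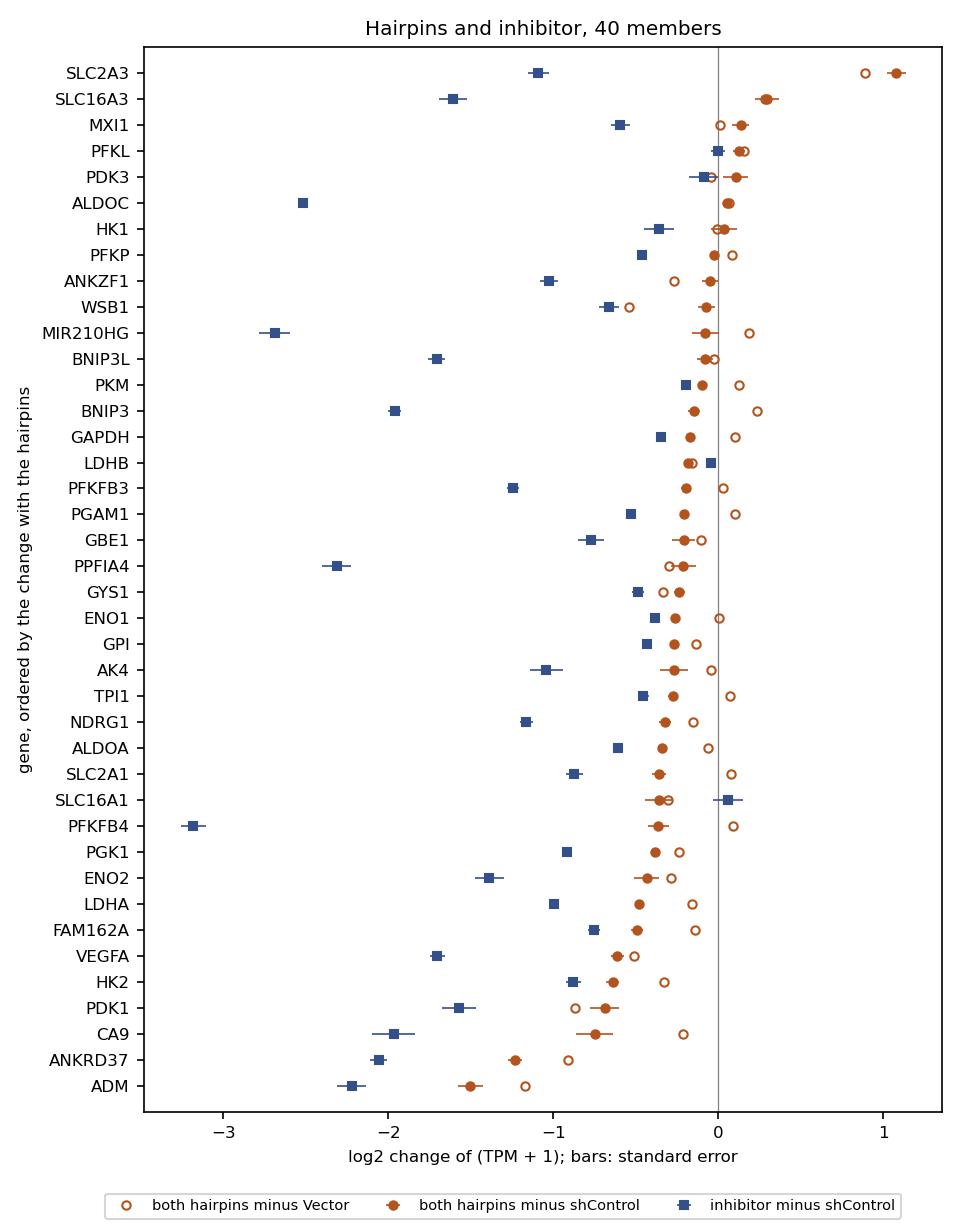
Each row is a gene; filled circles give the log2 change of both hairpins minus shControl, open circles both hairpins minus Vector, and squares the inhibitor minus shControl, with standard errors as bars on the filled marks. The squares extend to -3.18 and the filled circles to -1.502, and for 13 genes, among them GAPDH, ENO1, PKM and TPI1, the open circles lie on the other side of 0.

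Set directly against the mean of the hairpins, the inhibitor gave lower values for 37 genes (21.6% of tested genes were called lower) and higher values for SLC16A1 and LDHB (30.9% called higher); PDK3 was not called. Of these, 11 were lower by 2-fold or more, against 0.919% of tested genes: PFKFB4, MIR210HG, ALDOC, SLC2A3, PPFIA4, SLC16A3, BNIP3, BNIP3L, CA9, VEGFA and PFKFB3. The median difference was -0.58, against 0.04 for all genes. Under quantile normalization the abundant GAPDH, ENO1 and PKM gave 0.04, 0.04 and 0.10 here, and PDK3 was called lower (-0.22) with median of ratios.

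Each hairpin by itself gave a similar count of lower genes, 26 with sh1 and 24 with sh2 (21.3% and 13.4% of tested genes). The higher genes were 4 with sh1 and 1 with sh2 (23.7% and 22.0% of tested genes). Under median-of-ratios and quantile scaling the share of higher calls over all genes with sh2 went from 62.2% to 47.8% and 46.8%. Set against each other, 3 of the 40 genes differed, ADM, ANKRD37 and LDHA, all higher with sh2 (1.16% of tested genes were called higher and 0.385% lower). ADM was higher with sh2 by 0.65 (SE 0.087, adjusted p = 0.015), ANKRD37 by 0.33 (adjusted p = 0.02) and LDHA by 0.15 (adjusted p = 0.02); none of the 3 calls held in a fit of only the sh1 and sh2 libraries. Over all genes the share of higher calls went from 75.1% to 52.6% and 54.1% under median-of-ratios and quantile scaling.

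Glucose enters through the transporters SLC2A1 (GLUT1) and SLC2A3 (GLUT3). SLC2A1 stood at 34.8 and 35.6 TPM in shControl, 26.998 and 24.6 in Vector, 28.2 and 26.7 with sh1, 27.02 and 27.04 with sh2, 18.6 and 18.999 with the inhibitor, and 45.6 and 47.4 with overexpression. Overexpression was the highest group and inhibitor the lowest, with the Vector and hairpin libraries close together and under shControl. It fell by 0.87 with the inhibitor (SE 0.050, adjusted p = 2.9e-06), gave -0.36 with the hairpins against shControl and 0.08 against Vector, and rose by 0.82 with overexpression. SLC2A3 was at 2.405 and 2.19 TPM with the inhibitor, 14.7 and 13.8 with sh1, 13.8 and 13.02 with sh2, 6.08 and 5.97 in shControl, 6.91 and 7.12 in Vector, and 11.2 and 10.2 with overexpression. It is the gene whose hairpin libraries were the highest of all groups: it rose by 1.08 with the hairpins (SE 0.057, adjusted p = 1.2e-06) and fell by 1.09 with the inhibitor (SE 0.066, adjusted p = 4e-06). Set directly against the hairpins, the inhibitor difference was -2.17 (adjusted p = 1.8e-08). SLC2A3 made up 14.6% of the summed TPM of both transporters in shControl, 21.4% in Vector, 34.2% with sh1 and 33.1% with sh2, 10.9% with the inhibitor and 18.7% with overexpression. SLC2A3 is nearly identical to SLC2A14, so the split of reads between these genes is uncertain.

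Hexokinases trap glucose as glucose 6-phosphate. HK2, the inducible isozyme, was at 68.7 and 67.2 TPM with overexpression, 39.8 and 40.3 in Vector, 48.6 and 51.01 in shControl, 32.5 and 32.5 with sh2, 32.1 and 29.4 with sh1, and 26.5 and 26.7 with the inhibitor. The inhibitor libraries were lowest and the hairpin libraries next, with no overlap between these groups or with the controls. HK2 fell by 0.88 with the inhibitor (adjusted p = 1.5e-06), fell by 0.64 with the hairpins (adjusted p = 2.5e-06) and rose by 0.75 with overexpression (adjusted p = 5e-06). Against Vector the hairpin fall of HK2 was smaller, with means of 31.63 TPM with the hairpins, 40.04 in Vector and 49.83 in shControl. HK1, the housekeeping isozyme, lay between 6.17 and 13.7 TPM and made up 14.7% of the pair in shControl and 23.4% with sh1. Its fall with the inhibitor of -0.36 (adjusted p = 0.012) did not pass the test without shControl replicate 1 (-0.27) or without inhibitor replicate 2 (-0.31). GPI, which turns glucose 6-phosphate into fructose 6-phosphate, moved by -0.43 with the inhibitor, -0.27 with the hairpins and 0.85 with overexpression.

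Phosphofructokinase commits sugar to glycolysis, and the PFKFB enzymes make and remove its activator, fructose 2,6-bisphosphate. PFKFB4 was at 19.1 and 18.9 TPM in shControl, 13.1 and 14.2 in Vector, 15.5 and 14.2 with sh1, 14.02 and 14.5 with sh2, 1.05 and 1.37 with the inhibitor, and 45.6 and 46.1 with overexpression. Both inhibitor libraries sat far under every other library, and the overexpression libraries far above. It fell by 3.18 with the inhibitor (SE 0.075, adjusted p = 8.8e-09), the largest fall of the 40 on the log2(TPM + 1) scale, and rose by 1.68 with overexpression (SE 0.075, adjusted p = 7.9e-07). The hairpins gave -0.36 against shControl but 0.09 against Vector. PFKFB3, the isozyme with the strongest kinase over phosphatase activity, was at 16.4 and 16.6 TPM with the inhibitor, 35.9 and 36.1 with sh1, 33.7 and 35.03 with sh2, 40.1 and 40.8 in shControl, 34.6 and 34.4 in Vector, and 63.7 and 62.8 with overexpression. Its inhibitor libraries were the lowest and its overexpression libraries the highest, and the hairpin libraries lay close to the Vector ones. It fell by 1.24 with the inhibitor (adjusted p = 2.5e-08) and rose by 0.86 with overexpression (adjusted p = 4.6e-07). The share of PFKFB4 in the summed TPM of PFKFB2, PFKFB3 and PFKFB4 was 30.4% in shControl, 26.2% in Vector, 5.64% with the inhibitor and 40.4% with overexpression, and that of PFKFB2 was 4.84% in shControl and 17.3% with the inhibitor.

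PFKL, the liver-type phosphofructokinase, was at 312 and 316 TPM with overexpression, 193 and 185 in Vector, 193 and 192 in shControl, 201 and 210.5 with sh2, 210.2 and 221 with sh1, and 186 and 199.7 with the inhibitor. Its inhibitor and shControl libraries overlapped, with a difference of -0.001 (SE 0.042, adjusted p = 0.99), while the overexpression libraries stood above all others, higher by 0.73 (adjusted p = 3.6e-06). The rise with the hairpins, 0.13 (adjusted p = 0.018), did not pass the test under median-of-ratios scaling (0.09) or without either shControl library (0.13 without replicate 1, 0.12 without replicate 2). PFKP, the platelet-type isozyme and the most abundant of the family, fell by 0.46 with the inhibitor and rose by 0.48 with overexpression; with the hairpins it gave -0.028 (adjusted p = 0.34). PFKL made up 26.9% of PFKL, PFKP and PFKM together in shControl, 26.7% in Vector, 32.1% with the inhibitor and 32.4% with overexpression.

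Aldolase splits fructose 1,6-bisphosphate. ALDOC, the brain-type isozyme, was at 154 and 147 TPM in shControl, 152 and 147 in Vector, 166 and 164 with sh1, 149.6 and 148 with sh2, 26.03 and 24.997 with the inhibitor, and 315 and 313 with overexpression. The control and hairpin libraries all lay close together, with the inhibitor libraries far under them and the overexpression libraries far above. It fell by 2.52 with the inhibitor (SE 0.033, adjusted p = 2.5e-10), gave 0.055 with the hairpins (adjusted p = 0.14) and rose by 1.06 with overexpression (adjusted p = 1.8e-07). Its share of aldolase RNA was 4.96% in shControl, 5.92% in Vector, 1.33% with the inhibitor and 7.66% with overexpression. ALDOA, the main isozyme, was at 1831 and 1953 TPM with the inhibitor, 2245 and 2303 with sh1, 2286 and 2279.8 with sh2, 2863 and 2908 in shControl, 2422 and 2335 in Vector, and 3769.9 and 3806 with overexpression. It fell by 0.61 with the inhibitor (adjusted p = 1.7e-06) and rose by 0.67 with overexpression; with the hairpins it fell by 0.34, a call that was lost against Vector (-0.06).

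TPI1, which interconverts the triose phosphates, was at 1769 and 1739 TPM with overexpression, 1104 and 1084 in Vector, 1402 and 1386 in shControl, 1153 and 1201 with sh2, 1142 and 1109.6 with sh1, and 987 and 1048 with the inhibitor. GAPDH, which oxidizes glyceraldehyde 3-phosphate, was at 8437 and 8479 TPM in shControl, 7061 and 6948 in Vector, 7481 and 7587 with sh1, 7396 and 7527 with sh2, 6469 and 6816 with the inhibitor, and 9925 and 9900.0 with overexpression. In both genes the Vector libraries were nearer to the inhibitor libraries than to shControl. TPI1 fell by 0.46 and GAPDH by 0.35 with the inhibitor against shControl, and they rose by 0.68 and 0.50 with overexpression against Vector. Against the other control pair each of these changes was smaller. The TPI1 means were 1017 TPM with the inhibitor, 1094 in Vector, 1394 in shControl and 1754 with overexpression. For GAPDH they were 6642, 7005, 8458 and 9912 TPM in the same order. PGK1, which makes the first ATP of the pathway, was at 581 and 577 TPM with the inhibitor, 835 and 819 with sh1, 849 and 848 with sh2, 1104 and 1085 in shControl, 1013 and 967 in Vector, and 1783 and 1781 with overexpression. It fell by 0.92 with the inhibitor (SE 0.025, adjusted p = 2.5e-08), fell by 0.39 with the hairpins (adjusted p = 1.8e-06) and rose by 0.85 with overexpression (adjusted p = 1.8e-07), with no overlap between any of these groups and their controls. The PGK1 fall with the hairpins was smaller against Vector, with means of 837.7 TPM with the hairpins, 990 in Vector and 1094 in shControl. PGAM1, which moves the phosphate, was at 1641 and 1576 TPM with overexpression, 985 and 1008 in Vector, 1247 and 1219 in shControl, 1074 and 1080.1 with sh2, 1071 and 1042 with sh1, and 846 and 859 with the inhibitor. It fell by 0.53 with the inhibitor and rose by 0.69 with overexpression. Against shControl the hairpins gave -0.28 for TPI1, -0.17 for GAPDH and -0.21 for PGAM1, and against Vector 0.07, 0.10 and 0.10. GAPDH, TPI1, PGAM1, LDHA and ENO1 have processed pseudogenes, among which the authors' counting could split reads.

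Enolase makes phosphoenolpyruvate. ENO2, the neuron-type isozyme, was at 13.4 and 14.8 TPM in shControl, 13.4 and 11.9 in Vector, 10.2 and 10.9 with sh1, 9.05 and 10.5 with sh2, 4.54 and 4.97 with the inhibitor, and 50.1 and 47.3 with overexpression. The overexpression libraries were highest and the inhibitor libraries lowest, without overlap. It fell by 1.39 with the inhibitor (adjusted p = 4.9e-06), fell by 0.43 with the hairpins (adjusted p = 0.0013) and rose by 1.87 with overexpression (SE 0.087, adjusted p = 9.7e-07). ENO1, the general isozyme, was at 2546 and 2606 TPM with the inhibitor, 2724 and 2773 with sh1, 2847 and 2866 with sh2, 3376 and 3355 in shControl, 2839 and 2749.9 in Vector, and 5076 and 5099 with overexpression. ENO1 fell by 0.39 with the inhibitor against shControl and rose by 0.86 with overexpression against Vector. The fall was smaller against Vector, with means of 2576 TPM with the inhibitor, 2794 in Vector and 3365 in shControl. ENO2 made up 0.416% of enolase RNA in shControl, 0.450% in Vector, 0.184% with the inhibitor and 0.949% with overexpression. PKM, pyruvate kinase, was at 4329 and 4289 TPM with overexpression, 2662 and 2676 in Vector, 3121 and 3114 in shControl, 2829 and 2898 with sh2, 2959 and 2972 with sh1, and 2645 and 2792 with the inhibitor. Its fall with the inhibitor of -0.20 (adjusted p = 0.00041) was the smallest of the 36 on that scale, was lost under quantile normalization (-0.009, adjusted p = 0.87) and was 0.03 against Vector (adjusted p = 0.44). With the hairpins ENO1 gave -0.26 and PKM -0.10 against shControl, and 0.004 and 0.13 against Vector. The rise of PKM with overexpression was 0.69 (adjusted p = 3.1e-07).

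LDHA encodes the M subunit of lactate dehydrogenase, which favors lactate, and LDHB the H subunit. LDHA was at 1182 and 1183 TPM in shControl, 941 and 954 in Vector, 794 and 813 with sh1, 899.6 and 885 with sh2, 598 and 585 with the inhibitor, and 1473 and 1490.2 with overexpression. LDHB was at 913 and 887 TPM with the inhibitor, 782 and 796 with sh1, 855 and 837 with sh2, 924 and 932 in shControl, 922 and 899 in Vector, and 879 and 883 with overexpression. LDHA was lowest with the inhibitor and highest with overexpression, while the LDHB libraries of the inhibitor overlapped those of Vector and lay just under shControl. LDHA fell by 0.998 with the inhibitor (SE 0.023, adjusted p = 7.6e-09), fell by 0.48 with the hairpins (adjusted p = 3.1e-07) and rose by 0.64 with overexpression (adjusted p = 2.1e-07). The hairpin fall of LDHA was smaller against Vector, with means of 847.9 TPM with the hairpins, 947.7 in Vector and 1183 in shControl. For LDHB the changes were -0.044 with the inhibitor (adjusted p = 0.18) and -0.048 with overexpression (adjusted p = 0.15), and it fell by 0.18 with the hairpins (adjusted p = 1e-04). Under median-of-ratios scaling LDHB was called lower with the inhibitor (-0.11, adjusted p = 0.045). LDHA made up 56.03% of the pair in shControl, 50.99% in Vector, 50.5% with sh1, 51.3% with sh2, 39.7% with the inhibitor and 62.7% with overexpression.

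**Figure D4:**
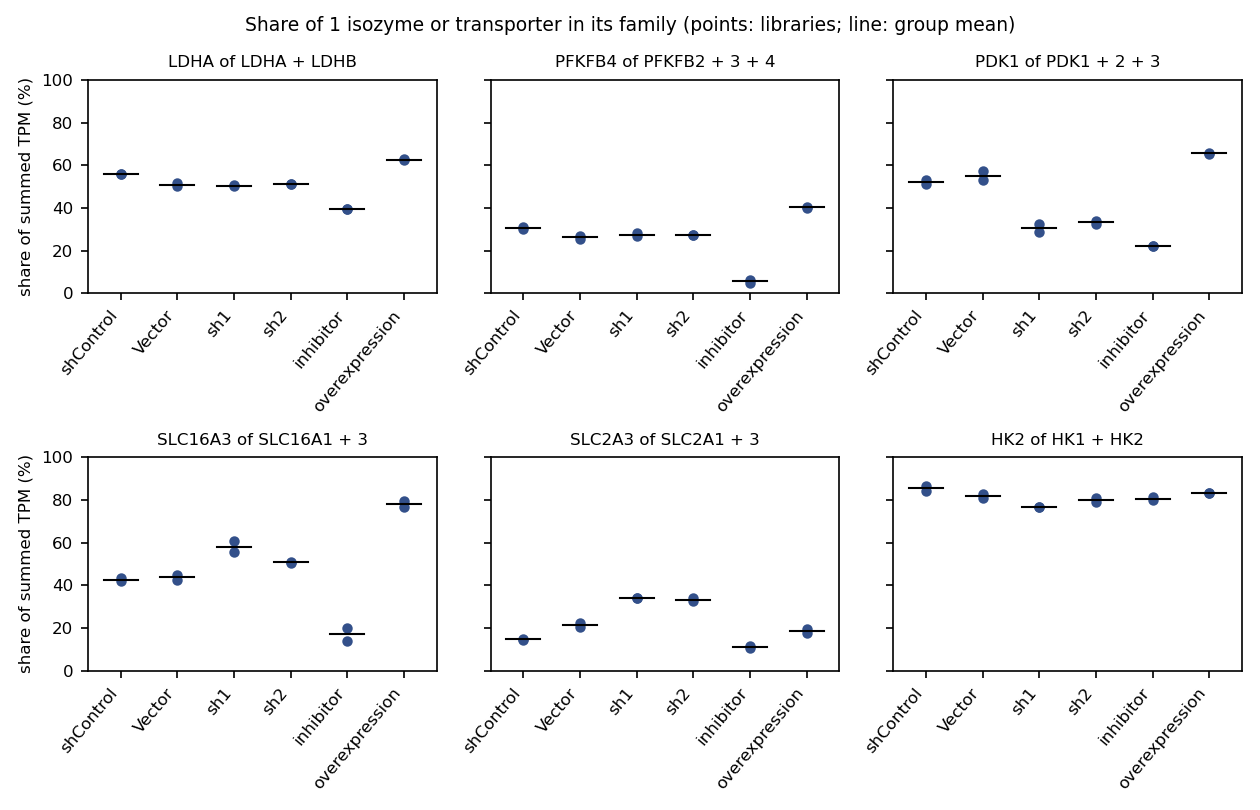
For each enzyme or transporter family, the axis gives the percent of the family's summed TPM held by 1 isozyme, with 1 point per library, a line at each group mean and groups along the horizontal axis. The shares of LDHA, PFKFB4, PDK1 and SLC16A3 are lowest with the inhibitor and highest with overexpression, that of SLC2A3 is highest with the hairpins, and that of HK2 stays between 76.6% and 85.4% in the group means.

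Pyruvate dehydrogenase kinases shut the entry of pyruvate into the mitochondrion. PDK1 was at 81.4 and 76.6 TPM with overexpression, 40.03 and 44.3 in Vector, 35.4 and 38.7 in shControl, 24.6 and 22.9 with sh2, 24.4 and 19.03 with sh1, and 12.02 and 11.6 with the inhibitor. The inhibitor libraries were lowest, the hairpin libraries next and the overexpression libraries highest, and none of these overlapped a control library. It fell by 1.57 with the inhibitor (SE 0.10, adjusted p = 5.9e-06), fell by 0.69 with the hairpins (SE 0.088, adjusted p = 2e-04; -0.87 against Vector) and rose by 0.89 with overexpression (adjusted p = 0.00018). PDK3 lay between 2.78 and 4.99 TPM; it gave -0.089 with the inhibitor (adjusted p = 0.46; -0.24 and called lower, adjusted p = 0.047, against Vector) and rose by 0.32 with overexpression (adjusted p = 0.019). With PDK2 counted in the family, PDK1 held 52.2% in shControl, 55.2% in Vector, 30.6% with sh1, 33.4% with sh2, 22.3% with the inhibitor and 65.6% with overexpression, while PDK2 held 43.4% in shControl, 38.4% and 41.6% in the Vector libraries, 64.95% with sh1, 72.1% with the inhibitor and 30.5% with overexpression.

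Lactate leaves with protons through the monocarboxylate transporters. SLC16A3 (MCT4), the low-affinity exporter, was at 14.7 and 15.1 TPM in shControl, 15.4 and 14.6 in Vector, 19.1 and 20.9 with sh1, 16.96 and 17.2 with sh2, 3.78 and 4.69 with the inhibitor, and 55.6 and 61.2 with overexpression. SLC16A1 (MCT1), which carries lactate either way, was at 23.3 and 18.9 TPM with the inhibitor, 15.3 and 13.7 with sh1, 16.6 and 16.4 with sh2, 19.3 and 21.02 in shControl, 18.9 and 19.8 in Vector, and 17.01 and 15.8 with overexpression. SLC16A3 was lowest with the inhibitor and highest with overexpression, whereas for SLC16A1 the inhibitor libraries overlapped the controls and the hairpin and overexpression libraries lay under them. SLC16A3 fell by 1.61 with the inhibitor (SE 0.084, adjusted p = 1.7e-06) and rose by 1.89 with overexpression (SE 0.084, adjusted p = 7.5e-07). With the hairpins it rose by 0.29 (adjusted p = 0.0092), a call lost without shControl replicate 1 (0.27). SLC16A1 gave 0.058 with the inhibitor (adjusted p = 0.65), fell by 0.36 with the hairpins (adjusted p = 0.0048), a call lost without shControl replicate 2 (-0.30), and gave -0.23 with overexpression (adjusted p = 0.084). The inhibitor and the hairpins differed in SLC16A1 by 0.42 (adjusted p = 0.0017). SLC16A3 made up 42.5% of the pair in shControl, 43.6% in Vector, 58.01% with sh1, 50.8% with sh2, 16.9% with the inhibitor and 78.01% with overexpression. CA9, a membrane carbonic anhydrase that buffers the exported acid and a standard marker of HIF activity, was at 29.1 and 28.1 TPM with overexpression, 2.35 and 2.23 in Vector, 3.19 and 4.42 in shControl, 1.88 and 1.82 with sh2, 1.77 and 1.88 with sh1, and 0.112 and 0.335 with the inhibitor. Only the overexpression libraries passed 5 TPM. CA9 rose by 3.17 there (SE 0.13, adjusted p = 4.3e-07), the largest rise of the 40 on that scale, and fell by 1.97 with the inhibitor (SE 0.13, adjusted p = 6.1e-06). Its fall with the hairpins, -0.75 (adjusted p = 5e-04), was lost against Vector (-0.21, adjusted p = 0.14).

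**Figure D5:**
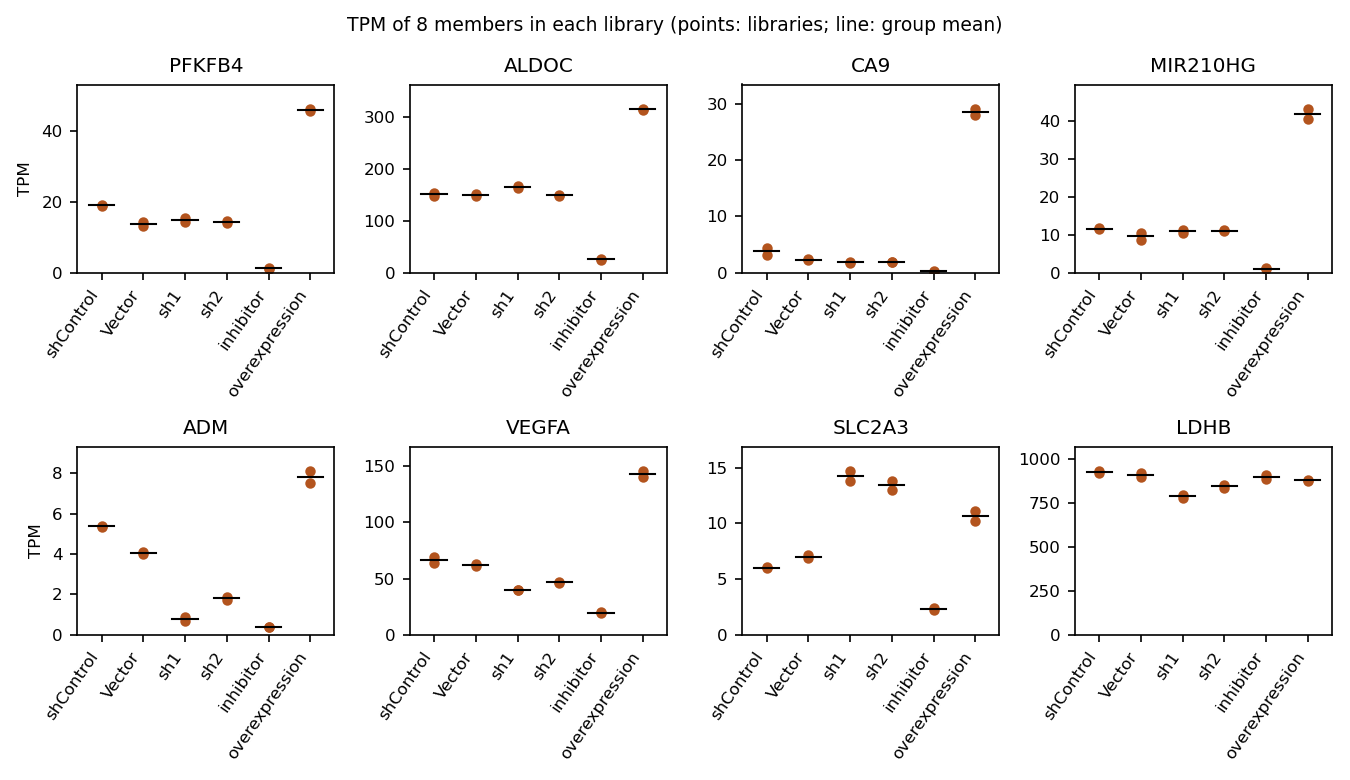
Each panel gives the TPM of 1 gene on a linear axis from 0, with a point for each of the 12 libraries and a line at each group mean. With the hairpins PFKFB4, ALDOC and MIR210HG lie close to the control libraries, ADM and VEGFA are lower with both the hairpins and the inhibitor, SLC2A3 is highest with the hairpins, and LDHB is nearly level.

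The 2 angiogenic genes among the 40, VEGFA and ADM, fell with the inhibitor and with the hairpins, and rose with overexpression. VEGFA, the main vascular growth factor, was at 63.9 and 69.6 TPM in shControl, 60.9 and 63.3 in Vector, 39.998 and 40.1 with sh1, 47.2 and 46.2 with sh2, 19.3 and 20.2 with the inhibitor, and 145 and 140.3 with overexpression. ADM, a vasodilator peptide, was at 0.368 and 0.365 TPM with the inhibitor, 0.904 and 0.701 with sh1, 1.74 and 1.89 with sh2, 5.33 and 5.42 in shControl, 4.12 and 4.03 in Vector, and 8.11 and 7.505 with overexpression. In both genes the order was overexpression, controls, sh2, sh1 and inhibitor, with no overlap between inhibitor, hairpin and control libraries. VEGFA fell by 1.70 with the inhibitor (SE 0.047, adjusted p = 2.4e-08), fell by 0.61 with the hairpins (SE 0.040, adjusted p = 4e-06; -0.51 against Vector) and rose by 1.19 with overexpression (adjusted p = 3.7e-07). ADM fell by 2.22 with the inhibitor (SE 0.087, adjusted p = 2.4e-07), fell by 1.502 with the hairpins (SE 0.076, adjusted p = 8.8e-07; -1.17 against Vector) and rose by 0.80 with overexpression (adjusted p = 0.00015). ADM, CA9, PPFIA4 and AK4 were under 1 TPM in both inhibitor libraries, where the log2(TPM + 1) scale understates a change.

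BNIP3 and BNIP3L (NIX) are receptors in the outer mitochondrial membrane that hand mitochondria to autophagy. BNIP3 was at 123 and 119 TPM with overexpression, 68.04 and 72.2 in Vector, 90.9 and 92.5 in shControl, 84.9 and 86.6 with sh2, 79.5 and 80.03 with sh1, and 22.3 and 23.4 with the inhibitor. BNIP3L was at 33.2 and 33.5 TPM in shControl, 32.1 and 32.1 in Vector, 32.3 and 29.6 with sh1, 31.3 and 32.9 with sh2, 9.54 and 9.501 with the inhibitor, and 74.1 and 68.5 with overexpression. In both, inhibitor libraries were the lowest and overexpression libraries the highest, and the hairpin libraries lay within or near the range of the control libraries. With the inhibitor BNIP3 fell by 1.96 (SE 0.039, adjusted p = 3.6e-09) and BNIP3L by 1.71 (SE 0.053, adjusted p = 5e-08). Overexpression raised BNIP3 by 0.78 and BNIP3L by 1.12. The hairpins gave -0.15 for BNIP3 against shControl (adjusted p = 0.006) but 0.24 against Vector (adjusted p = 0.00042), and -0.081 for BNIP3L (adjusted p = 0.18). FAM162A, a mitochondrial protein induced by HIF, was at 118 and 119 TPM with the inhibitor, 132 and 135 with sh1, 157 and 145 with sh2, 204 and 196 in shControl, 154 and 159 in Vector, and 337 and 336 with overexpression. It fell by 0.75 with the inhibitor (adjusted p = 1.5e-06), fell by 0.49 with the hairpins (adjusted p = 4.7e-06; -0.14 against Vector) and rose by 1.10 with overexpression (adjusted p = 2.1e-07).

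Among the other HIF targets, ANKRD37, an ankyrin repeat protein, was at 69.7 and 71.9 TPM with overexpression, 25.3 and 25.6 in Vector, 31.6 and 32.6 in shControl, 14.5 and 15.1 with sh2, 11.2 and 12.03 with sh1, and 7.15 and 6.77 with the inhibitor. Its groups did not overlap, and the order was overexpression, shControl, Vector, sh2, sh1 and inhibitor. It fell by 2.06 with the inhibitor (SE 0.050, adjusted p = 9e-09), fell by 1.23 with the hairpins (SE 0.043, adjusted p = 1.6e-07; -0.91 against Vector) and rose by 1.44 with overexpression (adjusted p = 2e-07). MIR210HG was at 11.8 and 11.4 TPM in shControl, 8.57 and 10.4 in Vector, 10.4 and 11.2 with sh1, 11.2 and 10.9 with sh2, 0.818 and 1.09 with the inhibitor, and 43.02 and 40.4 with overexpression. PPFIA4, liprin alpha 4, was at 0.304 and 0.357 TPM with the inhibitor, 4.41 and 4.84 with sh1, 4.81 and 4.72 with sh2, 5.14 and 6.09 in shControl, 5.696 and 6.34 in Vector, and 23.4 and 24.7 with overexpression. In both genes the control and hairpin libraries lay close together, the inhibitor libraries near 1 TPM or under it and the overexpression libraries far above. For PPFIA4 all hairpin libraries lay under all control libraries. MIR210HG fell by 2.69 with the inhibitor (adjusted p = 1.1e-07) and rose by 2.03 with overexpression (adjusted p = 9.7e-07), and the hairpins gave -0.079 (adjusted p = 0.46). PPFIA4 fell by 2.31 with the inhibitor (adjusted p = 1.9e-07) and rose by 1.84 with overexpression (adjusted p = 1.1e-06). The table also has a row for the miR-210 precursor, MIR210, at 94.1 and 15.6 TPM in shControl, 0 and 0 in Vector, 139 and 60.3 with sh1, 30.7 and 47.3 with sh2, 0 and 0 with the inhibitor, and 120 and 221 with overexpression. Its shControl replicates differed several-fold, and both Vector and inhibitor libraries were listed at 0; a short row inside the host transcript on the same strand cannot be told apart from host reads in poly(A) libraries.

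NDRG1, a differentiation and stress gene, was at 248 and 247 TPM with overexpression, 112 and 106 in Vector, 125 and 121 in shControl, 96.6 and 102 with sh2, 99.5 and 94.1 with sh1, and 54.2 and 54.2 with the inhibitor. MXI1, which antagonizes MYC, was at 34.04 and 35.97 TPM in shControl, 37.998 and 38.6 in Vector, 40.6 and 36.8 with sh1, 38.8 and 37.99 with sh2, 23.9 and 21.8 with the inhibitor, and 69.003 and 67.2 with overexpression. NDRG1 was lowest with the inhibitor, next with the hairpins and highest with overexpression, and MXI1 likewise except that its hairpin libraries lay above shControl. NDRG1 fell by 1.17 with the inhibitor (adjusted p = 8.9e-08), fell by 0.32 with the hairpins (adjusted p = 6.5e-05) and rose by 1.18 with overexpression (adjusted p = 2e-07). Its hairpin fall was smaller against Vector, with means of 97.96 TPM with the hairpins, 109 in Vector and 122.8 in shControl. MXI1 fell by 0.59 with the inhibitor (adjusted p = 6.7e-05) and rose by 0.81 with overexpression (adjusted p = 1.2e-05); its rise with the hairpins, 0.14 (adjusted p = 0.049), was 0.01 against Vector (adjusted p = 0.90).

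The glycogen genes GBE1 and GYS1 and the kinase AK4 fell with the inhibitor and rose with overexpression. GBE1, the glycogen branching enzyme, was at 10.2 and 8.91 TPM with the inhibitor, 15.8 and 13.6 with sh1, 14.2 and 14.8 with sh2, 17.5 and 16.5 in shControl, 15.5 and 16.01 in Vector, and 30.3 and 29.8 with overexpression. AK4, a mitochondrial adenylate kinase, was at 3.11 and 2.91 TPM with overexpression, 1.21 and 1.11 in Vector, 1.497 and 1.56 in shControl, 1.09 and 1.12 with sh2, 1.14 and 1.03 with sh1, and 0.273 and 0.183 with the inhibitor. In both the inhibitor libraries were lowest and the overexpression libraries highest. GBE1 fell by 0.77 (adjusted p = 9.4e-05) and AK4 by 1.04 (adjusted p = 6e-05) with the inhibitor, and they rose by 0.89 and 0.89 with overexpression. GYS1, glycogen synthase, lay between 33.8 and 70.8 TPM and moved by -0.49 with the inhibitor, -0.24 with the hairpins and 0.42 with overexpression. Small falls with the hairpins in AK4 (adjusted p = 0.027), GBE1 (adjusted p = 0.031) and PPFIA4 (adjusted p = 0.045) were each lost without shControl replicate 2 (-0.25, -0.25 and -0.11). Means with the hairpins, in Vector and in shControl were 1.10, 1.16 and 1.53 TPM for AK4 and 14.59, 15.75 and 17.02 for GBE1. For PPFIA4 they were 4.70, 6.02 and 5.62 TPM, so its fall was larger against Vector.

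WSB1, a ubiquitin ligase subunit, was at 31.9 and 30.2 TPM in shControl, 42.2 and 44.6 in Vector, 30.4 and 27.6 with sh1, 29.6 and 30.3 with sh2, 19.8 and 18.7 with the inhibitor, and 58.7 and 55.6 with overexpression. ANKZF1, a factor of ribosome quality control, was at 29.6 and 26.6 TPM with the inhibitor, 55.6 and 53.6 with sh1, 56.3 and 59.5 with sh2, 57.1 and 59.3 in shControl, 66.03 and 69.9 in Vector, and 135 and 131 with overexpression. These are the 2 genes of the 40 called higher in Vector than in shControl. WSB1 fell by 0.66 with the inhibitor (adjusted p = 3.9e-05) and rose by 0.39 with overexpression (adjusted p = 0.00082). ANKZF1 fell by 1.03 (adjusted p = 2e-06) and rose by 0.96 (adjusted p = 3.7e-06) in the same comparisons. Neither passed the test with the hairpins against shControl, with -0.072 and -0.050, while against Vector they were called lower, at -0.54 and -0.27 (adjusted p = 3.1e-05 and 0.0014).

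Genes outside the 40 were read from 6 further lists, whose counts stand beside the shares over all tested genes given above. Those shares belong to the comparisons without exchange, and none is given beside the counts with exchanged controls. All 6 lists, like the 40 genes, were chosen with earlier results of these data known, so their counts are not independent support. From a list of 69 genes taken as hypoxia-induced, 51 were tested. Of these, 40 fell and 2 rose with the inhibitor (median -0.52), and 20 fell and 13 rose with the hairpins (median -0.14). With overexpression 40 rose and 2 fell (median 0.56). With the exchanged controls the hairpins gave 28 lower and 7 higher genes of this list. The collagen prolyl hydroxylases P4HA2 and P4HA1 fell with the inhibitor from 9.18 ± 0.82 to 1.33 ± 0.43 TPM (SD, n = 2) and from 36.9 ± 0.34 to 8.59 ± 0.30 TPM, by 2.14 and 1.98 log2 units. DDIT4, an inhibitor of mTORC1, fell from 280 ± 7.57 to 71.8 ± 0.72 TPM. HMOX1, heme oxygenase, rose in all 3 comparisons, by 1.97 with the inhibitor, 0.93 with the hairpins and 1.16 with overexpression. INSIG1, a brake on sterol synthesis, fell by 0.997 with the inhibitor and by 0.99 with the hairpins, and by 0.61 with overexpression.

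Of 11 tested oxygen sensing genes, 4 fell and 4 rose with the inhibitor (median 0.02), 2 fell and 4 rose with the hairpins (median 0.03), and 2 fell and 5 rose with overexpression (median 0.12). With the exchanged controls the hairpins gave 4 lower and 4 higher genes. EGLN1, the main HIF prolyl hydroxylase and itself a HIF target, was at 38.4 ± 1.21 TPM in shControl, 24.2 ± 1.16 with the inhibitor (SD, n = 2) and 38.8 ± 0.71 over the 4 hairpin libraries; it fell by 0.65 with the inhibitor and rose by 0.88 with overexpression. HIF1AN, the asparagine hydroxylase that dampens HIF, rose by 0.33 with the inhibitor and by 0.38 with the hairpins. CREBBP, a coactivator, rose by 0.30 and CITED2, which competes for coactivators, fell by 0.26 with the inhibitor. OS9 rose by 0.35 with the hairpins. HIF1A itself was not called in any of the 3: -0.13 (adjusted p = 0.34), 0.21 (adjusted p = 0.075) and -0.28 (adjusted p = 0.051) in the same order, and against Vector the inhibitor gave -0.32 (adjusted p = 0.022).

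Of 26 tested hexose and pyruvate genes, 3 fell and 9 rose with the inhibitor (median 0.07), 5 fell and 7 rose with the hairpins (median 0.001) and 3 fell and 7 rose with overexpression (median 0.007). With the exchanged controls 9 fell and 6 rose with the inhibitor, 10 fell and 2 rose with the hairpins, and 7 fell and 13 rose with overexpression. SLC2A8, an intracellular hexose transporter, rose by 0.93 with the inhibitor and by 0.60 with the hairpins. PGM1, which links glucose 6-phosphate to glycogen, fell by 0.60 with the inhibitor. TIGAR, a fructose bisphosphatase, rose by 0.36 and MPC1, a mitochondrial pyruvate carrier subunit, by 0.35 with the inhibitor. SLC2A12 rose by 0.71 with the hairpins against shControl but gave -0.42 against Vector (adjusted p = 0.0016).

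Of 17 tested glycogen genes, none fell and 7 rose with the inhibitor (median 0.14), 2 fell and 5 rose with the hairpins (median 0.06) and 2 fell and 8 rose with overexpression (median 0.18). With the exchanged controls 6 fell and 5 rose with the inhibitor, 8 fell and 3 rose with the hairpins, and 2 fell and 12 rose with overexpression. PYGB, glycogen phosphorylase, rose by 0.46 with the inhibitor, 0.35 with the hairpins and 0.32 with overexpression, and STBD1, a glycogen tether, by 0.43, 0.35 and 0.34. EPM2A and GSK3A rose with the inhibitor by 0.42 and 0.27. Of 17 tested mitophagy and autophagy receptors, none fell and 4 rose with the inhibitor (median 0.004), 3 fell and 13 rose with the hairpins (median 0.29) and 2 fell and 7 rose with overexpression (median 0.09). With the exchanged controls 9 fell and 4 rose with the inhibitor, 3 fell and 6 rose with the hairpins, and 2 fell and 13 rose with overexpression. SQSTM1, the p62 receptor, rose by 1.01 with the inhibitor and by 0.76 with the hairpins. With the hairpins GABARAPL1 rose by 0.90 and PINK1, the kinase that marks damaged mitochondria, by 0.84. PINK1 was also higher in Vector than in shControl, by 0.56 (adjusted p = 0.0016). Its means were 5.19 TPM in shControl, 8.12 in Vector, 10.98 with sh1 and 9.20 with sh2. Of the 17 genes, 11 were called higher and 2 lower in Vector against shControl (21.4% and 7.86% of tested genes). BECN1 and BCL2L13 rose with the inhibitor by 0.31 and 0.22. GABARAPL1 rose by 0.22 against shControl but gave -0.58 against Vector (adjusted p = 0.0002), and its hairpin value against Vector was 0.10 (adjusted p = 0.23). Of 8 tested nucleoside monophosphate kinases, 1 fell and 3 rose with the inhibitor (median 0.13), 3 fell and 2 rose with the hairpins (median -0.07) and 3 rose with overexpression (median 0.13). AK6, DTYMK and CMPK1 rose with the inhibitor by 0.32, 0.23 and 0.22 and GUK1 fell by 0.22, while with the hairpins CMPK1 rose by 0.29.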

How the data were processed

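RNA from 12 KMS11 libraries was extracted with RNeasy and sequenced as stranded poly(A) libraries on DNBSEQ, per the labels' protocols. The authors deposited 1 table of TPM per gene. Per the submitters' processing notes the build was GRCh38.p13 and the tools, in roles not given, were DESeq2 1.4.5, RSEM 1.3.1, HISAT and Bowtie2 2.3.4.3. Read depth is unknown, since TPM keeps none.

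The 40 genes and the further lists were chosen with earlier results of these data known. Values were transformed to log2(TPM + 1), which understates changes of low genes. Genes reaching 1 TPM in 2 or more libraries were fitted with limma 3.58.1 in R 4.3.3 as group means over all 12 libraries (6 residual degrees of freedom), with eBayes and a trend. P-values were Benjamini-Hochberg adjusted over the 12731 tested genes in each comparison, with a call at 0.05. With 2 libraries against 2, an exact permutation test of a single gene cannot go below 0.333. The fit was tested on simulated data. For the further lists, but not for the cell markers, synonyms were matched through RefSeq, so TIGAR is the row C12orf5.

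A gene got its value in every library if it was called with an absolute log2 change of at least 0.5 with the inhibitor or the hairpins, rose in either, differed by at least 0.5 between them, or was among the 5 most abundant; a few others were added after their values were seen. From each further list, up to 4 called genes with the largest change with the inhibitor and up to 2 with the hairpins were named, among genes at 5 TPM in 2 libraries. The value of 1 gene that this rule names is not reported here. Alternatives were other pseudocounts, filters, scalings and eBayes without trend, only the compared groups, a replicate block, leaving out each library, and exchanged control columns. The same alternatives were applied to the further lists after seeing the data.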

Additional observations from a re-analysis of the deposited data

How the results depend on the processing

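Set against the libraries taken as Vector, the hairpins gave 17 lower and 8 higher genes of the 40, sh1 17 and 9 and sh2 15 and 8, and these hairpin values crossed 0: PFKFB3 0.028, PFKFB4 0.088, PFKP 0.082, TPI1 0.073, GAPDH 0.098, PGAM1 0.099, ENO1 0.004, PKM 0.127, SLC2A1 0.076 and BNIP3 0.235, as did CITED2 (-0.245), BCL2L13 (-0.029) and SLC2A12 (-0.422). MIR210HG (0.188), PDK3 (-0.043) and HK1 (-0.011), not called against either pair, also crossed 0. With the inhibitor PKM gave 0.026, GABARAPL1 -0.577, OS9 -0.051 and PINK1 -0.332. Under quantile normalization the inhibitor against the hairpins gave 0.043 for GAPDH, 0.04 for ENO1 and 0.095 for PKM. The cause was not tested, and no share over all tested genes stands beside the counts of this paragraph. In every setting run the inhibitor gave 35 to 37 lower genes of the 40 and overexpression 36 to 38 higher ones. Overexpression gave 2 lower genes with median of ratios, 1 with quantiles and 2 with exchanged controls. The hairpins gave 2 higher genes with median of ratios and 1 to 4 without single libraries, 1 without shControl replicate 1 and 2 without shControl replicate 2 or sh2 replicate 2. sh1 gave 2 to 4 higher genes without single libraries, 2 without shControl replicate 2. sh2 gave 2 higher genes with only the groups compared, 2 with quantiles and 2 without trend. Vector gave 1 higher gene with median of ratios and 1 to 2 without single libraries. sh2 against sh1 gave 5 higher and 1 lower at 5 TPM, 0 higher with only the groups compared, 1 lower with quantiles, 1 higher without trend and 0 to 1 higher without single libraries.

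Over 15 pairs of groups the correlation of same-numbered deviations ran from -0.1 to 0.14, and 1 was above 0.1. With only 1 deviation per group, these values cannot show whether same-numbered libraries were handled together. With the replicate number as a block the counts of lower and higher genes of the 40 were 36 and 0 with the inhibitor, 28 and 4 with the hairpins, 25 and 4 with sh1, 24 and 1 with sh2, 0 and 38 with overexpression, 20 and 3 in Vector, 0 and 3 in sh2 against sh1, and 37 and 2 for the inhibitor against the hairpins. Read depth is unknown, so the counting error of genes near 1 TPM, such as AK4 and ADM, could not be computed.

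The counts in the further lists, run under these alternatives after seeing the data, were small and moved as follows; the cause was not tested. Among hypoxia-induced genes, 2 higher with the inhibitor became 1 with 5 TPM and 1 to 2 without single libraries, and 13 higher with the hairpins became 7 with exchanged controls. For hypoxia-induced genes, 2 lower with overexpression became 1 with no filter, rescaling without the 40 genes and no trend and 1 whichever library was left out. Among glycogen genes, 0 lower with the inhibitor became 1 with pseudocount 0.1, pseudocount 0.5, 5 TPM, only the groups compared, quantiles, rescaling without the 40 genes, no trend and a replicate block, 2 with median of ratios and 6 with exchanged controls, and 7 higher with the inhibitor became 4 with only the groups compared and 4 to 6 without single libraries. For glycogen genes, 2 lower with the hairpins became 1 with 5 TPM, 4 with quantiles, 8 with exchanged controls and 1 to 3 without single libraries, and 5 higher with the hairpins became 3 with quantiles and exchanged controls and 3 to 4 without single libraries. For glycogen genes, 2 lower with overexpression became 1 with 5 TPM and 0 to 1 without single libraries, and 8 higher with overexpression became 4 with quantiles, 5 with only the groups compared and median of ratios and 5 to 7 without single libraries. Among hexose and pyruvate genes, 3 lower with the inhibitor became 1 with only the groups compared, 9 with exchanged controls and 1 to 3 without single libraries, and 9 higher with the inhibitor became 4 with quantiles, 5 with median of ratios and 4 to 8 without single libraries. For hexose and pyruvate genes, 5 lower with the hairpins became 10 with exchanged controls and 3 to 5 without single libraries, and 7 higher with the hairpins became 2 with exchanged controls. For hexose and pyruvate genes, 3 lower with overexpression became 7 with exchanged controls, 8 with median of ratios and quantiles and 0 to 4 without single libraries, and 7 higher with overexpression became 13 with exchanged controls. Among mitophagy and autophagy genes, 0 lower with the inhibitor became 1 with no trend, 3 with median of ratios, 5 with quantiles and 9 with exchanged controls, and 4 higher with the inhibitor became 2 with quantiles. For mitophagy and autophagy genes, 3 lower with the hairpins became 1 to 3 without single libraries, and 13 higher with the hairpins became 6 with exchanged controls. For mitophagy and autophagy genes, 2 lower with overexpression became 1 to 2 without single libraries, and 7 higher with overexpression became 4 with median of ratios, 13 with exchanged controls and 4 to 6 without single libraries. Among nucleoside kinase genes, 3 higher with the inhibitor became 0 with quantiles, 1 with only the groups compared and 1 to 4 without single libraries, and 2 higher with the hairpins became 1 with no filter, quantiles and no trend and 1 to 2 without single libraries. For nucleoside kinase genes, 0 lower with overexpression became 1 with quantiles and exchanged controls, 2 with median of ratios and 0 to 1 without single libraries. Among oxygen sensing genes, 4 higher with the inhibitor became 2 with median of ratios and quantiles and 2 to 4 without single libraries, and 2 lower with the hairpins became 4 with exchanged controls and 1 to 2 without single libraries. For oxygen sensing genes, 4 higher with the hairpins became 2 to 5 without single libraries, and 2 lower with overexpression became 1 to 3 without single libraries. For oxygen sensing genes, 5 higher with overexpression became 3 with median of ratios.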
